A study of Mus musculus with 12 samples.

Results

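Genes of cholesterol synthesis, uptake and export were examined in mouse liver. The 31 genes were taken by symbol from a deposited expression table of 21004 genes, each on 1 row, and all 31 passed the filter on low values (1 FPKM or more in 3 or more libraries) that left 10786 genes for testing. FPKM is a fragment count divided by transcript length and by the number of mapped fragments in the library. The livers came from ICR mice, an outbred strain, aged 8 weeks, and total RNA was sequenced in 12 libraries. There were 4 groups of 3 libraries, namely a control, mice given busulfan, mice given 10 mg/kg of L.J., and mice given busulfan and the same dose of L.J. together (written "both" in what follows). Busulfan is an alkylating agent used to ablate dividing cells, and L.J. is an abbreviation that the labels leave unexplained. The study asked whether L.J. counters what busulfan does to the liver. Nothing in the labels says whether the 3 libraries of a group are 3 animals, and every p-value is therefore relative to a spread between libraries that may be only technical.

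Liver cells make cholesterol from acetyl-CoA through mevalonate, isoprenoid and sterol intermediates. When membrane sterols run low, the chaperone SCAP escorts the precursor of the transcription factor SREBP2 to the Golgi, where it is cut and released to switch on the synthesis genes, while the INSIG proteins hold the complex back when sterols are plentiful. When oxysterols accumulate, the nuclear receptor LXR switches on transporters that send sterols out of the cell and into bile. The 31 genes were divided into 21 targets of SREBP2, 6 genes of the LXR and export side, and 4 in neither set (Scap, Insig2, Ggps1 and Soat2). Uptake is represented only by Mylip, a ubiquitin ligase that marks lipoprotein receptors for degradation, so that the label of uptake rests on 1 gene.

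Facts of the libraries bear on every value that follows. All 5 hepatocyte markers measured were present in all groups, with summed levels from 21390 to 48560 FPKM, as the labelled tissue requires. L.J. replicates 1 and 3 stood apart from the other libraries, since the major urinary protein genes, abundant liver transcripts, took 1.36% and 0.0956% of all FPKM there, against 23.9% in L.J. replicate 2 and 11.7% to 36.7% in the other 9 libraries. The summed level of 8 Kupffer cell and macrophage markers was highest in L.J. replicate 1 at 220.0 FPKM, and that of 5 erythroid markers in control replicate 1 at 1528 FPKM. L.J. replicate 1 also had the lowest hepatocyte sum, 21390 FPKM. Its sums of 5 sinusoidal endothelial and 5 stellate cell markers, 73.3 and 162 FPKM, were the highest of the 12 libraries. The sum of 5 pancreatic acinar markers was 217 FPKM in replicate 2 of the group given both and at most 25.7 in control and busulfan libraries. The part of these features in the results was not tested. Beside many of the results that rest on L.J. replicates 1 and 3, values without either or both of them are given. Where no such value is given, a result may still rest on them. Leaving out L.J. replicate 2 instead raised the number of all tested genes past the threshold from 27 to 1800 of 10786 for L.J. against control and from 3 to 1164 for both treatments against L.J., so that a gene that passed only in that setting was one of many. In bulk RNA, fewer cells of a type and less RNA per cell cannot be told apart.

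The promoters of the genes were read first, because the genes were divided by the factor known to act on them. RefSeq promoters, 250 bases before to 50 after the transcription start on GRCm38.p6, which has the coordinates of mm10, were matched for 25 of the 31 genes, among them 17 of the 21 SREBP2 targets and 5 of the 6 LXR and export genes. Each window was searched on both strands for the sterol regulatory element TCACNCCAC, to which SREBP binds, for the box CCAAT, to which NF-Y binds beside SREBP, for the GC box GGGCGG of SP1, and for the E-box CACGTG. Hmgcs1 is shown as the target with the sterol element, Idi1 as one with closely spaced CCAAT boxes, Insig1 and Srebf2 as genes of the SREBP system itself, and Abcg5 as the region that faces its transporter partner. Capitals mark the matches to the sterol element and to CCAAT, which reads ATTGG when it lies on the opposite strand. Hmgcs1 lies at chr13:119690101-119690400 on the plus strand, Idi1 at chr13:8885356-8885655 on the plus strand, Insig1 at chr5:28071162-28071461 on the plus strand, Srebf2 at chr15:82147019-82147318 on the plus strand and Abcg5 at chr17:84682962-84683261 on the minus strand.
Hmgcs1: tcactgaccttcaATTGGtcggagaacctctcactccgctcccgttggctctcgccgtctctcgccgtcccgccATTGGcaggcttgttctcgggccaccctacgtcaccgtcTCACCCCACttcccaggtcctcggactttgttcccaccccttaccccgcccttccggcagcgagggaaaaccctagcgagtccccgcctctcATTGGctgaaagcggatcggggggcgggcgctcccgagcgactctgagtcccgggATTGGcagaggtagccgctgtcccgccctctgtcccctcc
Idi1: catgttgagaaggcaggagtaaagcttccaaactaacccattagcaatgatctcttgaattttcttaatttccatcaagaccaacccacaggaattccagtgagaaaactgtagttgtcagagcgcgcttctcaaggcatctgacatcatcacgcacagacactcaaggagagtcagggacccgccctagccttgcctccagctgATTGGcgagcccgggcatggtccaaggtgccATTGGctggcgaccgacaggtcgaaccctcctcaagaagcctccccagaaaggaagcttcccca
Insig1: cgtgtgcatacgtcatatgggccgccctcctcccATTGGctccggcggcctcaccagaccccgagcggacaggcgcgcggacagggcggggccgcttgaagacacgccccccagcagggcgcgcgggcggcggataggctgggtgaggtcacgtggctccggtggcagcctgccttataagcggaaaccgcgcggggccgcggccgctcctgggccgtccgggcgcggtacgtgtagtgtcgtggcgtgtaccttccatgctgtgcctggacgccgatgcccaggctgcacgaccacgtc
Srebf2: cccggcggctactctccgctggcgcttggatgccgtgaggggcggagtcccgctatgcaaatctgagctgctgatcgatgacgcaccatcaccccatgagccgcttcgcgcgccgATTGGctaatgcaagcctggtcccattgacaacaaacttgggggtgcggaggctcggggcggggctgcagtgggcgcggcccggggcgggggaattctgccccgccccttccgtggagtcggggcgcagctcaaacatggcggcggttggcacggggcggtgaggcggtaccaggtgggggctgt
Abcg5: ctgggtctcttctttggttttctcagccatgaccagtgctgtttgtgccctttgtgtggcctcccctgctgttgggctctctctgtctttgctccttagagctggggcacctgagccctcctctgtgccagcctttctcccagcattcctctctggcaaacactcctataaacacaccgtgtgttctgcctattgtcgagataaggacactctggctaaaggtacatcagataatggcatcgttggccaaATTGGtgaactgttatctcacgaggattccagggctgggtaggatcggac

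The promoter of Hmgcs1, HMG-CoA synthase, was the only one of 17 with the sterol element in this spelling, at position -137 from the start, and it held 4 matches to CCAAT. Over all 27025 genes with a promoter in the table, 1.44% held the element. CCAAT was found in 16 of the 17 SREBP2 target promoters, or 94.1%, with Acat2 as the exception, against 41.1% of all genes and 43.3% of the 8572 tested genes that matched. It was found in 3 of the 5 LXR and export promoters. The longer spelling GCCAAT stood in 13 of the 17, or 76.5%, against 22% of tested genes, and every GCCAAT also counts as a CCAAT. The GC box was found in 16 of the 17 targets against 67.5% of tested genes, and in 2 of the 5 LXR and export promoters. The E-box was found in 4 of the 17, namely Dhcr7, Hsd17b7, Insig1 and Sc5d, against 11.9% of tested genes. The direct repeat DR4, the LXR element, was in none of the 5 LXR and export windows and in 0.0148% of all genes, so that this window of 300 bases says nothing about LXR. A match is a run of letters and not a site shown to be bound. Abcg5 and Abcg8, which encode the partners of 1 sterol transporter, lie head to head on chromosome 17, with starts 110 bases apart on opposite strands, so that the printed window reaches into both genes. Another annotated start of Abcg8 lies at -6709 on the chromosome relative to that of Abcg5.

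None of the 31 genes passed an adjusted p of 0.05 in any of the 6 comparisons by limma, a linear model with moderated variances fitted to log2(FPKM + 1) of all tested genes. The comparisons were busulfan against control, L.J. against control, both treatments against busulfan, against L.J. and against control, and the interaction, which is the effect of busulfan in the presence of L.J. minus its effect in the absence of L.J. The share of all tested genes past that threshold was 0% for busulfan, 0.25% for L.J., 0% for both against busulfan, 0.0278% for both against L.J., 0% for both against control and 0% for the interaction, so that 0 of 31 was near the background in each. At an unadjusted p below 0.05, the counts were 0 of 31 for busulfan (1.29% of all tested genes), 3 for L.J. (23.2%), 1 for both against busulfan (3.73%), 3 for both against L.J. (13.6%), 1 for both against control (6.93%) and 0 for the interaction (6.54%). Genes whose 3 libraries did not overlap with the other 3 numbered 0 of 31 for busulfan (5.92% of all tested genes), 1 for L.J. (20.8%), 3 for both against busulfan (9.99%), 2 for both against L.J. (13%) and 3 for both against control (11.8%). An exact permutation test of 3 against 3 libraries cannot go below 0.1, and none is given for single genes. Differences are on the log2(FPKM + 1) scale, which understates the change of genes with low values.

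**Figure D1:**
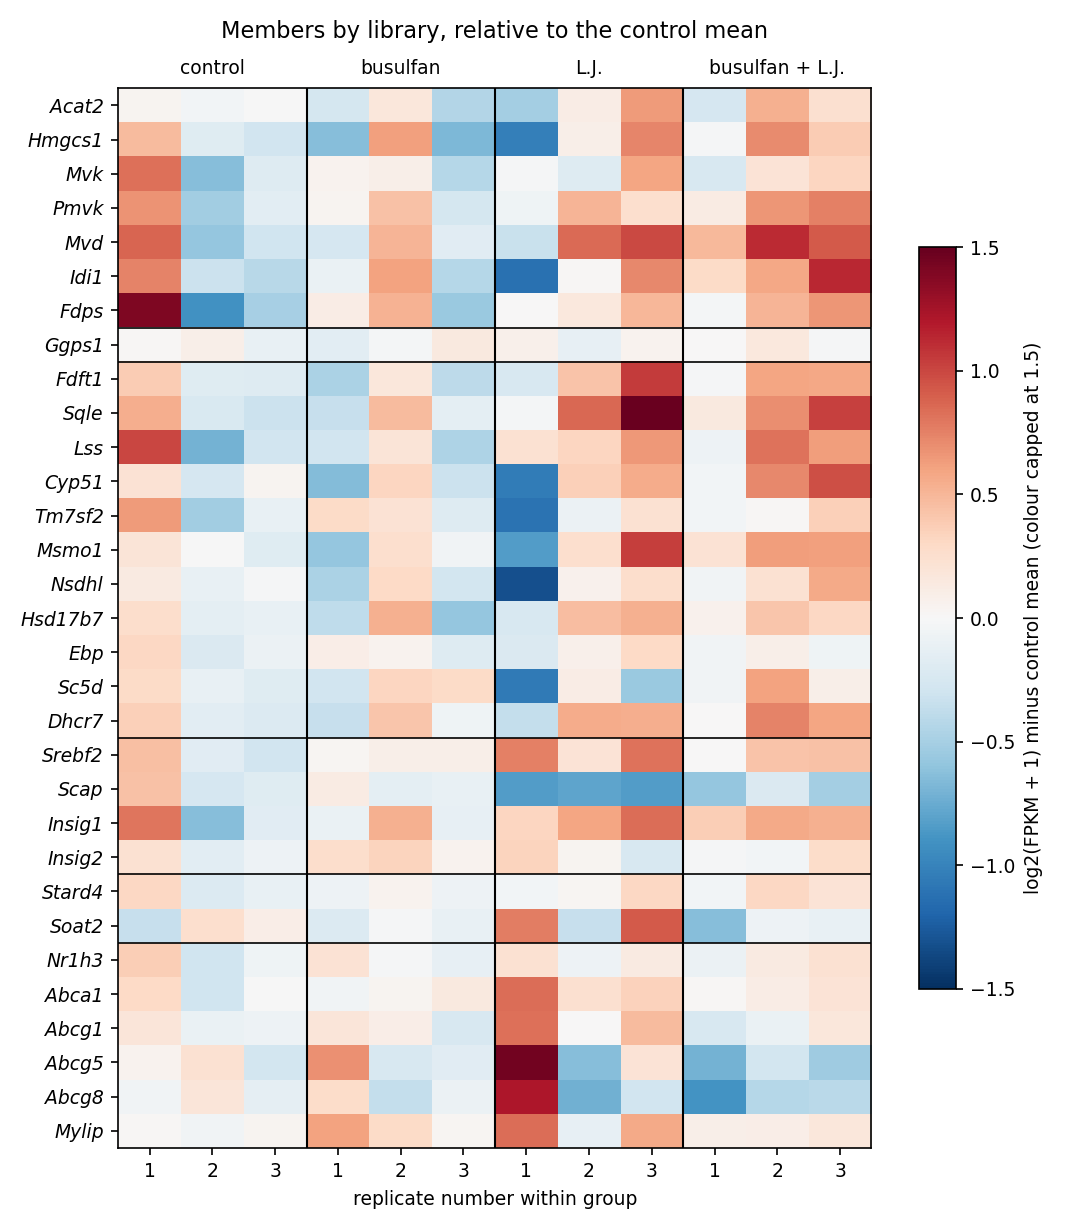
Each cell is the log2(FPKM + 1) of 1 gene in 1 of the 12 libraries minus the mean of the 3 control libraries, with red above and blue below that mean and the colour capped at 1.5. Columns are libraries by group and replicate number, and rows run from the mevalonate arm at the top to the LXR and export genes at the bottom. Control replicate 1 is red for nearly all synthesis genes, and L.J. replicate 1 is blue for many of them and red for the export genes.

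The synthesis genes varied together from library to library within a group. In the control group, replicate 1 was highest for 21 of the 21 SREBP2 targets. Busulfan replicate 2 was highest in its group for 19 of them, L.J. replicate 3 for 18, and L.J. replicate 1 was lowest for 19. In the group given both, replicate 1 was lowest for 20 and the highest value was in replicate 2 for 12 and in replicate 3 for 9. The median within-group SD of log2(FPKM + 1) was 0.47 for the 21 targets, 0.28 for the 6 LXR and export genes and 0.20 for all 10786 tested genes. These genes share 12 libraries, and the values are a description without a test. The same order was not counted over all tested genes, whose median level also differed between libraries. Minus the control mean, that median was 0.10, -0.10 and 0.0012 in control and 0.07, 0.06 and -0.01 with busulfan. With L.J. it was 0.26, 0.03 and 0.21, and with both -0.10, 0.09 and 0.13. The part of this shift in the order of the targets was not tested. The widest spread was that of Fdps, with an SD of 0.71, larger than for 97.7% of tested genes, and the narrowest among the 31 that of Ggps1 with 0.12.

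The mevalonate arm runs from acetyl-CoA to farnesyl diphosphate. Hmgcs1, which condenses acetoacetyl-CoA to HMG-CoA, stood at 192, 122 and 113 FPKM in control replicates 1 to 3, at 88.5, 213 and 86.2 with busulfan, at 67.7, 147 and 232 with L.J., and at 136, 227 and 180.1 with both. Its highest control value and its highest busulfan value were each above 2 of the 3 libraries given both, and all groups overlapped. Fdps, which makes farnesyl diphosphate, stood at 247, 49.1 and 65.7 FPKM in control, at 100.2, 134 and 62.9 with busulfan, at 93.0, 104 and 131 with L.J., and at 91.1, 133 and 147 with both. Control replicate 1 held its highest value and control replicate 2 its lowest, so that the control group alone spanned the whole range. Mvd, which decarboxylates mevalonate diphosphate, stood at 14.9, 4.83 and 6.05 FPKM in control, at 6.29, 11.3 and 6.75 with busulfan, at 5.88, 14.7 and 16.2 with L.J., and at 11.2, 17.8 and 15.5 with both.

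The Mvd level in the group given both overlapped with busulfan by 1 library and with control by 1 library. Its log2 difference was 0.81 (SE 0.41) against busulfan, with a limma adjusted p of 0.9999, and 0.84 (SE 0.41) against control, with an adjusted p of 0.729. Pmvk, phosphomevalonate kinase, stood at 58.7, 25.1 and 32.3 FPKM in control, at 37.4, 49.4 and 30.1 with busulfan, at 34.5, 52.2 and 43.4 with L.J., and at 39.4, 58.0 and 62.1 with both. Without control replicate 1 its difference between both treatments and control was 0.85, and without control replicate 2 it was 0.26, against 0.51 with all libraries. Idi1, which isomerises isopentenyl diphosphate and whose promoter is printed above, had a mean of 10.9 ± 5.73 FPKM in control, 10.8 ± 4.45 with busulfan, 10.5 ± 6.55 with L.J. and 17.1 ± 5.57 with both (SD, n = 3). Its lowest value of all 12 was 4.12 FPKM in L.J. replicate 1 and its highest 23.3 in replicate 3 of the group given both. Acat2, which joins 2 acetyl-CoA, ran from 34.4 to 77.4 FPKM over the 12 libraries, and Mvk, mevalonate kinase, from 4.77 to 14.9. All 7 genes of this arm had positive differences for both treatments against busulfan, with a median of 0.44, and for busulfan alone 4 of 7 were positive, with a median of 0.02. Ggps1, which extends farnesyl diphosphate for protein prenylation and is off the sterol route, lay between 2.36 and 3.21 FPKM in all 12 libraries.

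The squalene and sterol arm commits farnesyl diphosphate to cholesterol. Fdft1, squalene synthase, stood at 47.3, 31.6 and 31.4 FPKM in control, at 25.6, 40.7 and 27.3 with busulfan, at 30.5, 48.8 and 75.8 with L.J., and at 35.7, 54.9 and 54.4 with both. Only busulfan replicate 2 reached into the range of the group given both, and the log2 difference was 0.62 (SE 0.31) with an adjusted p of 0.9999. Sqle, squalene epoxidase, which is often called a rate-limiting step, had a mean of 24.2 ± 8.91 FPKM in control, 23.9 ± 7.78 with busulfan, 44.2 ± 22.0 with L.J. and 37.5 ± 11.3 with both (SD, n = 3). Its difference of 0.77 (SE 0.38) was the most positive of the 31 for L.J. against control, with an adjusted p of 0.245 by limma. Sc5d, which introduces a double bond late in the pathway, stood at 229, 173 and 164 FPKM in control, at 153, 234 and 228 with busulfan, at 88.6, 202 and 126 with L.J., and at 179, 285 and 198 with both.

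Sc5d was low in L.J. replicates 1 and 3, the libraries that stood apart, and not in replicate 2. Its difference for both treatments against L.J. was 0.72 (SE 0.29) with an adjusted p of 0.319, and it was 0.43 without L.J. replicate 1. Without L.J. replicate 2 it was 1.02 with an adjusted p of 0.0340, past the threshold, and without L.J. replicates 1 and 3 it was 0.098. Ebp, the sterol isomerase, stood at 127, 88.2 and 96.4 FPKM in control, at 109.8, 106 and 89.3 with busulfan, at 88.3, 108 and 127 with L.J., and at 98.7, 109.6 and 97.9 with both. It was the steadiest of this arm, with a within-group SD of 0.21, and its difference for both treatments against busulfan was 0.0065, next to the smallest of 11 positive differences in this arm, the 0.0023 of Tm7sf2. Lss, lanosterol synthase, ran from 5.35 to 19.8 FPKM over the 12 libraries, Cyp51, lanosterol demethylase, from 17.9 to 75.2, Tm7sf2, a sterol reductase, from 26.3 to 90.4, and Msmo1, a methylsterol oxidase, from 49.6 to 184. Nsdhl, a sterol dehydrogenase, ran from 22.6 to 86.6 FPKM, Hsd17b7, a sterol ketoreductase, from 9.29 to 21.3, and Dhcr7, the last reductase of the route, from 44.7 to 97.1. The lowest value of Cyp51, Tm7sf2, Msmo1, Nsdhl, Sc5d and Dhcr7 was in L.J. replicate 1 in each case.

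The 4 genes that control SREBP differed in sign for L.J. against control, with Scap negative and Srebf2, Insig1 and Insig2 positive. Scap, the sterol-sensing escort (gene ID 235623, chr9:110333288-110384949), stood at 42.5, 25.9 and 27.4 FPKM in control, at 34.0, 28.1 and 28.8 with busulfan, at 17.0, 17.6 and 17.0 with L.J., and at 20.5, 26.6 and 21.5 with both. All 3 L.J. libraries, including the one that did not stand apart, were below all other 9 libraries, and the group given both lay below busulfan without overlap and overlapped control by 1 library. The log2 difference for L.J. against control was -0.82 (SE 0.17), with a limma adjusted p of 0.0563, which misses the threshold of 0.05. For both treatments against busulfan it was -0.39 (SE 0.17), with an adjusted p of 0.9999, and against control -0.44 (SE 0.17), with an adjusted p of 0.68.

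Scap passed for L.J. against control under other settings, with a difference of -1.01 and an adjusted p of 0.0189 when each library was scaled to the median log2 ratio over genes, and an adjusted p of 0.0211 with quantile normalisation and 0.00535 with library weights. In these settings 99, 63 and 3456 of all 10786 tested genes passed, in that order, against 27 in the reported fit. Leaving out each of the 12 libraries in turn, the difference ran from -0.95 to -0.60 and the adjusted p from 0.0216, without L.J. replicate 2, to 0.213. Srebf2, which encodes SREBP2 and is itself its target (gene ID 20788, chr15:82147269-82205379), stood at 12.5, 7.74 and 7.04 FPKM in control, at 9.03, 9.43 and 9.41 with busulfan, at 15.6, 10.3 and 16.3 with L.J., and at 8.90, 12.2 and 12.3 with both. The L.J. libraries that stood apart held its highest values, and L.J. replicate 2 lay below control replicate 1. The difference for L.J. against control was 0.59 (SE 0.21) with an adjusted p of 0.138. It was 0.79 with an adjusted p of 0.0285 without L.J. replicate 2, and 0.51 without L.J. replicate 1. Without L.J. replicates 1 and 3 it was 0.20. The ratio of Srebf2 to Scap FPKM, a measure chosen after the values were seen, was 0.283 ± 0.0226 in control, 0.309 ± 0.0383 with busulfan, 0.820 ± 0.202 with L.J. and 0.488 ± 0.0730 with both (SD, n = 3). It ran from 0.257 to 0.335 over the 6 libraries without L.J. and from 0.434 to 0.955 over the 6 with L.J., so that these did not overlap. L.J. replicate 2, at 0.587, was the lowest of its group. No test is given for a ratio picked in this way.

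**Figure D2:**
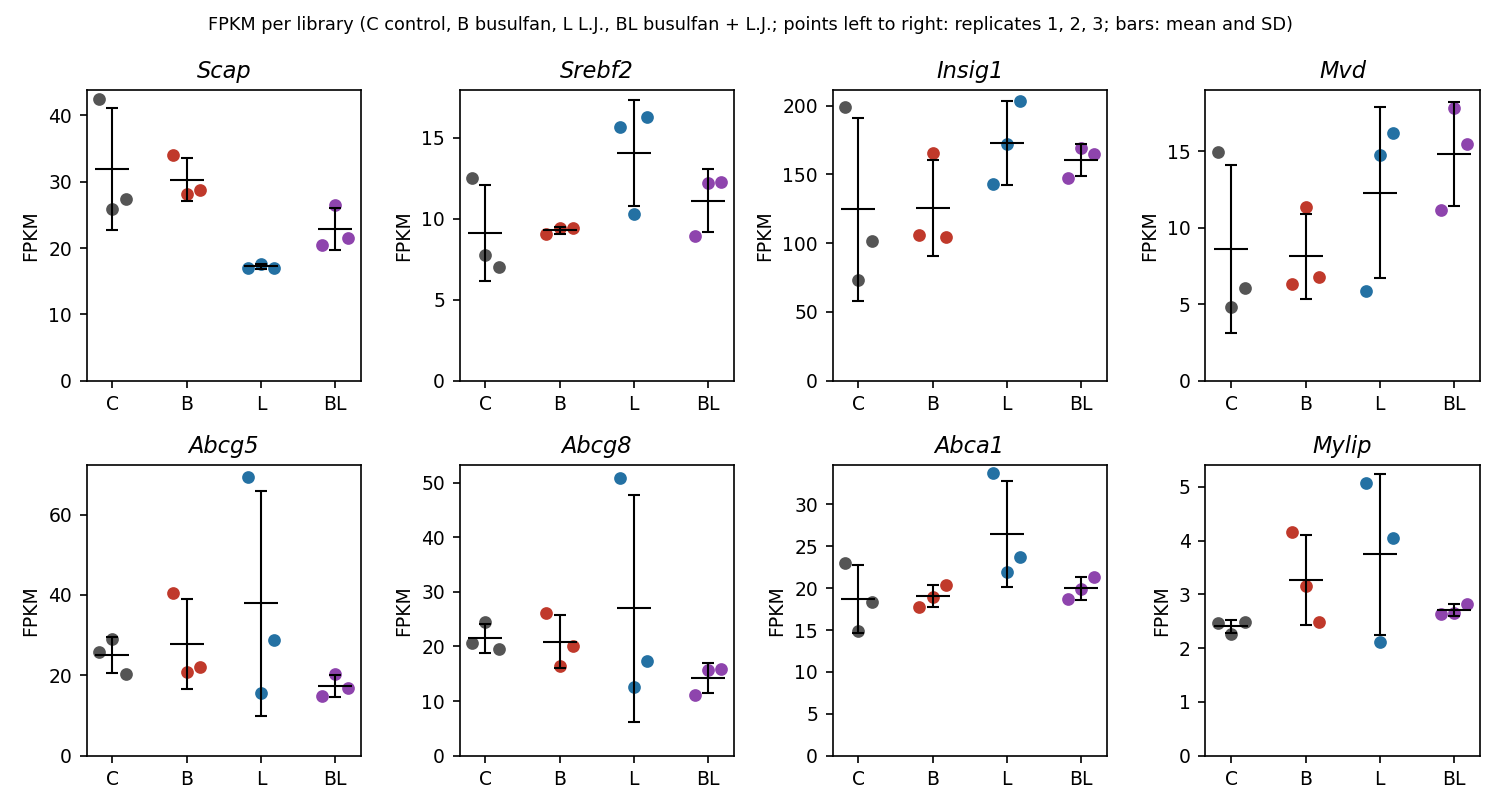
Points are the FPKM of 8 genes in each library, with replicates 1, 2 and 3 from left to right in each group, and bars show the group mean and SD (n = 3). The letters stand for control (C), busulfan (B), L.J. (L) and both (BL). Scap lies at 17.0 to 17.6 FPKM in the L.J. group, below all other libraries, while Abcg5 and Abcg8 have their highest value in L.J. replicate 1.

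Insig1, an SREBP2 target that retains SCAP in the endoplasmic reticulum, stood at 199, 72.8 and 101 FPKM in control, at 106, 166 and 105 with busulfan, at 143, 172 and 204 with L.J., and at 147, 169 and 165 with both. Control replicate 1 lay near the top of the range and control replicates 2 and 3 at its bottom, and the groups overlapped. Its paralogue Insig2, which is not an SREBP2 target, stood at 157, 119.9 and 127 FPKM in control, at 161, 169 and 139 with busulfan, at 169, 138 and 113 with L.J., and at 132, 130.2 and 163 with both. Insig2 had a difference of 0.22 (SE 0.17) for busulfan against control, with an adjusted p of 1. The ratio of Insig1 to Insig2 was 0.891 ± 0.341 in control, 0.797 ± 0.164 with busulfan, 1.30 ± 0.480 with L.J. and 1.14 ± 0.147 with both (SD, n = 3), and the lowest L.J. value, 0.844, lay within the control range.

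Of the genes that move and store cholesterol, Stard4, a carrier of sterol between membranes, stood at 30.1, 20.8 and 22.3 FPKM in control, at 22.8, 25.0 and 22.9 with busulfan, at 23.4, 24.5 and 30.2 with L.J., and at 23.3, 30.0 and 27.8 with both. Soat2, which esterifies cholesterol for lipoproteins, stood at 15.4, 23.8 and 21.4 FPKM in control, at 17.1, 19.6 and 18.4 with busulfan, at 34.5, 15.5 and 38.3 with L.J., and at 12.4, 18.8 and 18.3 with both. The high Soat2 values were those of L.J. replicates 1 and 3, while replicate 2 lay near the low end of control. The Soat2 difference for both treatments against L.J. was -0.72 (SE 0.29), with an adjusted p of 0.314. The Soat2 difference for L.J. against control was 0.45 (SE 0.29) with an adjusted p of 0.371, and it was 0.84 with an adjusted p of 0.0220 without L.J. replicate 2 and -0.34 without L.J. replicates 1 and 3. The difference for both treatments against L.J. was -1.11 with an adjusted p of 0.00703 without L.J. replicate 2, and 0.067 without L.J. replicates 1 and 3, so that the direction of each difference rested on those libraries.

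On the LXR and export side, Nr1h3, which encodes LXR alpha, stood at 38.9, 24.1 and 28.6 FPKM in control, at 35.0, 29.6 and 27.4 with busulfan, at 35.4, 28.4 and 33.1 with L.J., and at 28.1, 32.9 and 35.3 with both. The groups overlapped throughout. Abca1, which loads cholesterol onto nascent high-density lipoprotein, stood at 23.0, 14.8 and 18.3 FPKM in control, at 17.8, 18.9 and 20.4 with busulfan, at 33.7, 22.0 and 23.7 with L.J., and at 18.7, 19.9 and 21.3 with both. All 3 L.J. libraries were above the group given both, and control replicate 1 reached into the L.J. range. Its difference was 0.48 (SE 0.18) for L.J. against control, with an adjusted p of 0.147, and -0.37 (SE 0.18) for both against L.J., with an adjusted p of 0.378. Without L.J. replicate 1 the former was 0.29 and the latter -0.19, and without L.J. replicates 1 and 3 they were 0.24 and -0.13.

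Abcg1, a transporter of cholesterol to mature lipoproteins and abundant in macrophages, was the lowest of the 31, at 1.19, 0.80 and 0.83 FPKM in control, at 1.20, 1.07 and 0.63 with busulfan, at 2.42, 0.94 and 1.68 with L.J., and at 0.63, 0.81 and 1.17 with both. Its difference for both treatments against L.J. was -0.49 (SE 0.21) with an adjusted p of 0.326, and it was -0.30 without L.J. replicate 1, -0.063 without L.J. replicates 1 and 3, and -0.71 with an adjusted p of 0.0358 without L.J. replicate 2. For L.J. against control it was 0.43 (SE 0.21) with an adjusted p of 0.229, and 0.65 with an adjusted p of 0.0371 without L.J. replicate 2. That difference was 0.24 without L.J. replicate 1 and 0.0058 without L.J. replicates 1 and 3. Mylip stood at 2.46, 2.27 and 2.49 FPKM in control, at 4.16, 3.16 and 2.48 with busulfan, at 5.07, 2.12 and 4.04 with L.J., and at 2.63, 2.65 and 2.83 with both. The group given both lay above control without overlap, by a difference of 0.12 (SE 0.21) with an adjusted p of 0.974. Mylip had the smallest p of the 31 for busulfan against control, with a difference of 0.31 (SE 0.21), an adjusted p of 1, and 0.16 without busulfan replicate 1. For L.J. against control the Mylip difference was 0.42 (SE 0.21) with an adjusted p of 0.252, and 0.70 with an adjusted p of 0.0162 without L.J. replicate 2. For both treatments against L.J. it was -0.30 (SE 0.21) with an adjusted p of 0.532, and -0.58 with an adjusted p of 0.0410 without L.J. replicate 2. Without L.J. replicates 1 and 3 these Mylip differences were -0.13 and 0.25, so that both changed sign.

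Abcg5 stood at 25.8, 29.2 and 20.4 FPKM in control, at 40.6, 20.8 and 22.0 with busulfan, at 69.3, 15.6 and 28.8 with L.J., and at 14.8, 20.4 and 16.9 with both. Abcg8 stood at 20.6, 24.5 and 19.5 FPKM in control, at 26.1, 16.5 and 20.1 with busulfan, at 50.9, 12.6 and 17.3 with L.J., and at 11.0, 15.7 and 15.9 with both. L.J. replicate 1 held the highest value of each of the pair, L.J. replicate 2 held a value near the bottom, and the group given both lay below busulfan without overlap for each. The differences for both treatments against busulfan were -0.60 (SE 0.42) for Abcg5 and -0.52 (SE 0.38) for Abcg8, each with an adjusted p of 0.9999. Against L.J. the Abcg5 difference was -0.84 (SE 0.42) with an adjusted p of 0.389, and it was -0.29 without L.J. replicate 1, -1.33 with an adjusted p of 0.0387 without L.J. replicate 2, and 0.13 without L.J. replicates 1 and 3. Abcg8 also lay below control without overlap, by -0.58 (SE 0.38) with an adjusted p of 0.846. The ratio of Abcg5 to Abcg8 FPKM stayed between 1.05 and 1.66 in all 12 libraries, with group means of 1.16 ± 0.103 in control, 1.30 ± 0.238 with busulfan, 1.42 ± 0.216 with L.J. and 1.23 ± 0.151 with both (SD, n = 3).

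**Figure D3:**
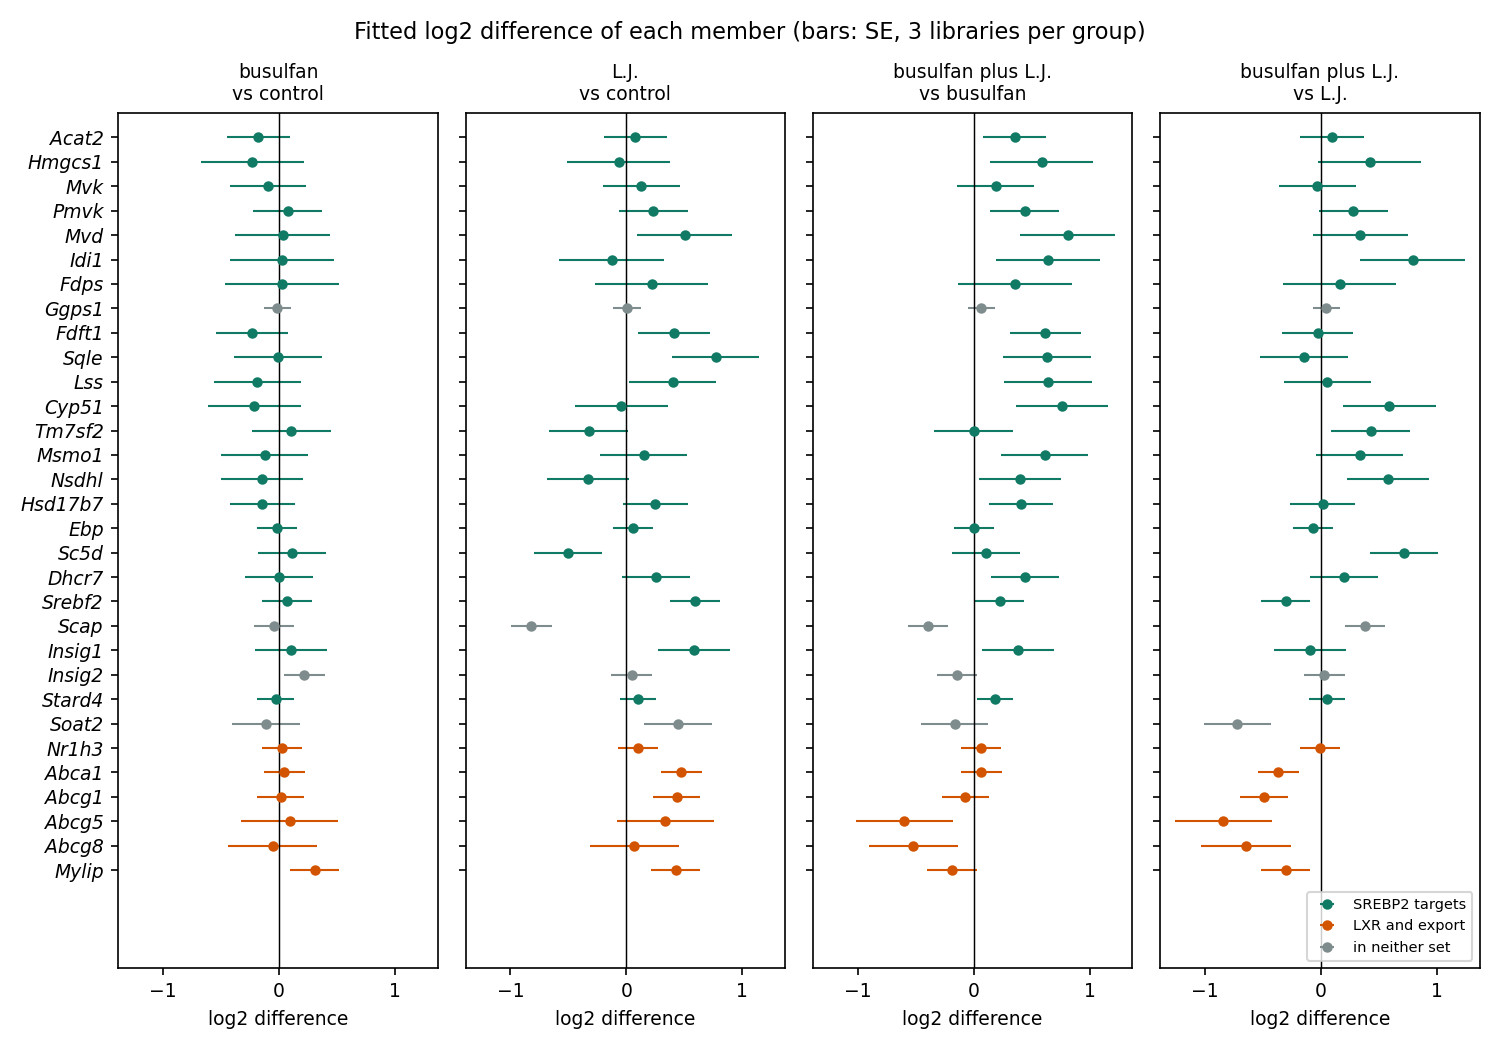
Points are the fitted log2 differences of the 31 genes in 4 comparisons and bars are standard errors (3 libraries per group). Green marks the 21 SREBP2 targets, orange the 6 LXR and export genes and grey the genes in neither set. For both treatments against busulfan the 21 targets all lie at or above 0, and for both against L.J. the 6 LXR and export genes all lie below 0, and no gene passed the threshold in any panel.

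The SREBP2 targets and the LXR and export genes were then compared as sets, by counts and medians set beside all tested genes. For busulfan against control, 9 of 21 targets had a positive difference, with a median of -0.02, and 5 of 6 LXR and export genes, with a median of 0.03, while 64.1% of all tested genes were positive, with a median of 0.04. With each library scaled to the median ratio, 5 of 21 targets and 3 of 6 LXR and export genes were positive. Without control replicate 1 the target median was 0.25 and without busulfan replicate 2 it was -0.22, so that its sign rested on single libraries. The LXR and export median was 0.16 without control replicate 1 and -0.07 without busulfan replicate 1, so that its sign did too.

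For L.J. against control, 15 of 21 targets were positive, with a median of 0.15, and 6 of 6 LXR and export genes, with a median of 0.38. All tested genes were shifted in this comparison, with 77.1% positive and a median of 0.17, and the target median lay within that shift. Scaled to the median ratio, 10 of 21 targets were positive with a median of -0.05, and 4 of 6 LXR and export genes with a median of 0.20. The LXR and export median was 0.13 without L.J. replicate 1, 0.62 without L.J. replicate 2, and -0.10 without L.J. replicates 1 and 3, whereas the target median was 0.41 without L.J. replicate 1, -0.0059 without L.J. replicate 3 and -0.0022 without control replicate 2. Kupffer cell and macrophage markers, a cell type in which Abca1 and Abcg1 are also expressed, had positive differences for 8 of 8 genes here, with a median of 0.85, and summed levels of 58.9 to 126 FPKM in control and 89 to 220.0 in L.J. Sinusoidal endothelial markers were positive for 5 of 5 genes here, with a median of 0.34, and stellate cell markers for 3 of 5, with a median of 0.11. For both treatments against control the Kupffer cell and macrophage markers were also positive for 8 of 8 genes, with a median of 0.62. The LXR and export genes there were positive for 3 of 6, with a median of 0.02. The part of these markers in the LXR and export values was not tested.

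Between both treatments and busulfan, 21 of 21 targets were positive, from 0.0023 to 0.81, with a median of 0.41, and 2 of 6 LXR and export genes, with a median of -0.13. Among all tested genes 50.7% were positive, with a median of 0.0022. The target median stayed between 0.27, without busulfan replicate 3, and 0.62, without busulfan replicate 2, when each library was left out in turn, and it was 0.41 after scaling to the median ratio, with 20 of 21 positive. Since the targets varied together between libraries, the 21 differences are not 21 independent observations. The erythroid sum was 282.5 to 508 FPKM with busulfan and 374 to 657 with both, and the Kupffer sum 82.5 to 142 and 77.7 to 193. The pancreatic acinar sum was 16.3 to 25.7 FPKM with busulfan and 14.6 to 217 with both, and its highest value was in replicate 2 of the group given both. Among the libraries of these groups, that replicate also had 1 of the 2 highest target levels. Without that library the target median was 0.34. The part of these markers was not tested otherwise.

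Between both treatments and L.J., 15 of 21 targets were positive, with a median of 0.16, and 0 of 6 LXR and export genes, with a median of -0.43. Among all tested genes 25.3% were positive, with a median of -0.13. Scaled to the median ratio, 19 of 21 targets and 1 of 6 LXR and export genes were positive. The target median was -0.08 without L.J. replicate 1 and 0.37 without replicate 1 of the group given both, so that its sign rested on single libraries. The LXR and export median was -0.14 without L.J. replicate 1, -0.64 without L.J. replicate 2 and 0.14 without L.J. replicates 1 and 3, so that its sign rested on those libraries. Between both treatments and control, 20 of 21 targets were positive, with a median of 0.38, and 3 of 6 LXR and export genes, with a median of 0.02, against 59.4% of all tested genes, with a median of 0.04. The target median in that comparison was 0.58 without control replicate 1, 0.19 without control replicate 2 and 0.23 without control replicate 3. The LXR and export median there was -0.085 without control replicate 2 and 0.09 without replicate 1 of the group given both, so that its sign rested on single libraries. The interaction was positive for 17 of 21 targets, with a median of 0.21, and for 0 of 6 LXR and export genes, with a median of -0.55, against 22.4% of all tested genes, with a median of -0.17. The target median of the interaction was -0.02 without L.J. replicate 1 and 0.47 without control replicate 2, so that its sign also rested on single libraries, and the LXR and export median was -0.27 without L.J. replicate 1 and -0.80 without L.J. replicate 2. That LXR and export median all but vanished without L.J. replicates 1 and 3, as given in the closing section, so that its size rested on those libraries. These comparisons share groups of libraries and are not independent of each other.

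**Figure D4:**
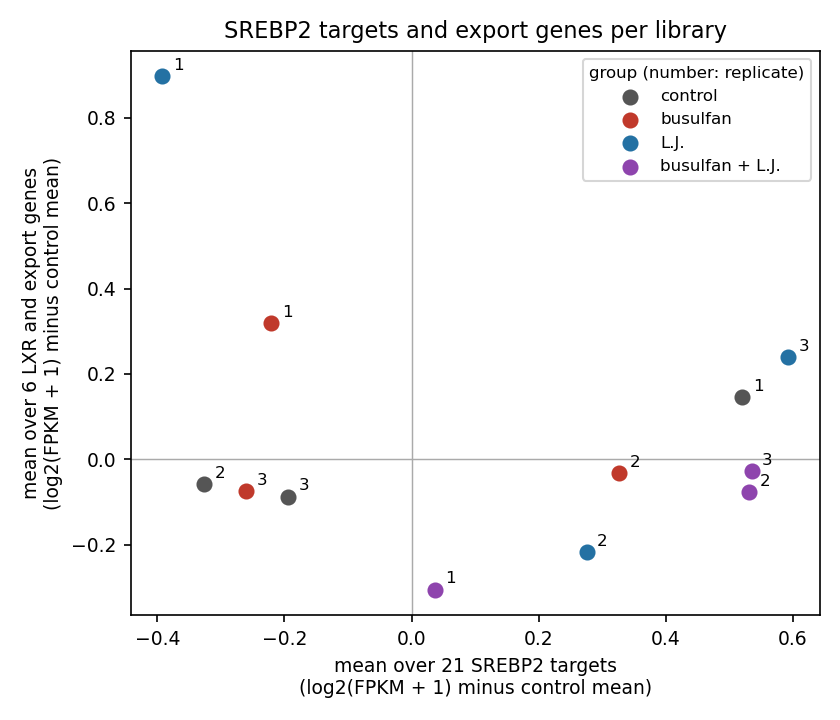
Each point is 1 of the 12 libraries, with the mean over the 21 SREBP2 targets on the horizontal axis and over the 6 LXR and export genes on the vertical axis, both as log2(FPKM + 1) minus the control mean, and numbers give the replicate. L.J. replicate 1 lies alone at -0.39 for targets and 0.90 for export, and the 3 libraries given both lie at 0.04 to 0.54 for targets and below 0 for export. Levels are not adjusted for the median of all tested genes, which was 0.26 in L.J. replicate 1 and -0.10 to 0.13 with both.

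A level for each set was read in each library as the mean of log2(FPKM + 1) over its genes minus the control mean. The target level was 0.52, -0.33 and -0.19 in control, -0.22, 0.33 and -0.26 with busulfan, -0.39, 0.28 and 0.59 with L.J., and 0.04, 0.53 and 0.54 with both. The LXR and export level was 0.15, -0.06 and -0.09 in control, 0.32, -0.03 and -0.07 with busulfan, 0.90, -0.22 and 0.24 with L.J., and -0.31, -0.08 and -0.03 with both. Neither level is adjusted for the shift of all tested genes. Their median was 0.10, -0.10 and 0.0012 in control and 0.07, 0.06 and -0.01 with busulfan. It was 0.26, 0.03 and 0.21 with L.J., and -0.10, 0.09 and 0.13 with both. The LXR and export level of L.J. replicate 3 thus lay near that of all tested genes. The group means of the target level were 0 ± 0.46, -0.05 ± 0.33, 0.16 ± 0.50 and 0.37 ± 0.29  in control, busulfan, L.J. and both (SD, n = 3), and the libraries of each group overlapped with those of the others. The difference of the 2 levels was lowest in L.J. replicate 1 at -1.29 and in busulfan replicate 1 at -0.54, and highest in replicates 2 and 3 of the group given both, at 0.61 and 0.56. Control libraries ran from -0.27 to 0.38, and the 4 groups overlapped in this difference. All libraries given both lay above control replicates 2 and 3, busulfan replicates 1 and 3, and L.J. replicate 1.

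Genes around these routes were read from lists chosen by function, and 0 passed in any list and comparison. Of 10 genes of SREBP processing and turnover, 8 were positive for L.J. against control, with a median of 0.19, and 4 had an unadjusted p below 0.05. Among all tested genes in that comparison 77.1% were positive, with a median of 0.17, and 23.2% had an unadjusted p below 0.05, so that the list lay near the background, as the counts of the other lists for L.J. against control must also be read. Ube2g2, a ubiquitin-conjugating enzyme that acts with sterol-regulated ligases, stood at 15.8 ± 1.65 FPKM in control and 23.4 ± 4.35 with L.J. (SD, n = 3), a difference of 0.53 (SE 0.14) with an adjusted p of 0.0804. Rnf145, a sterol-responsive ubiquitin ligase, stood at 3.99 ± 1.075 FPKM and 7.10 ± 1.93 (SD, n = 3), a difference of 0.69 (SE 0.22) with an adjusted p of 0.106, and 0.28 without L.J. replicates 1 and 3. The largest difference of this list for L.J. against control was 1.29, that of Srebf1, which also did not pass. Srebf1 stood at 32.7 ± 25.0 FPKM in control, 36.1 ± 10.6 with busulfan, 75.9 ± 43.8 with L.J. and 57.5 ± 22.7 with both (SD, n = 3). Its control libraries reached 61.2 FPKM and its L.J. libraries began at 41.1, so that these groups overlapped. Of 10 genes of uptake and lysosomal release, 7 were positive for L.J. against control, with a median of 0.23, and 0 of 10 for both treatments against L.J., with a median of -0.28, where 25.3% of all tested genes were positive, with a median of -0.13. Scarb1, the hepatic receptor for high-density lipoprotein, stood at 112 ± 39.5 FPKM with L.J. and 61.4 ± 9.49 with both (SD, n = 3), a difference of -0.80 (SE 0.26) with an adjusted p of 0.249, and -0.14 without L.J. replicates 1 and 3. Npc1, which releases cholesterol from lysosomes, stood at 29.85 ± 1.98 FPKM in control and 19.95 ± 1.38 with both (SD, n = 3), without overlap, a difference of -0.56 (SE 0.17) with an adjusted p of 0.51.

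Of 9 genes of other isoprenoid branches, 6 were positive for L.J. against control, with a median of 0.15, and Dhdds, which makes dolichol, stood at 7.65 ± 0.664 FPKM in control and 11.0 ± 1.92 with L.J. (SD, n = 3), a difference of 0.47 (SE 0.13) with an adjusted p of 0.0926. Of 8 genes that supply acetyl-CoA, NADPH and electrons, 3 were positive for L.J. against control, with a median of -0.12. Among them Por, which passes electrons to CYP51 and squalene epoxidase, stood at 92.7 ± 52.9 FPKM with L.J. and 36.4 ± 6.20 with both (SD, n = 3), a difference of -1.13 (SE 0.39) with an adjusted p of 0.259, and 0.03 without L.J. replicates 1 and 3, so that its sign rested on those libraries. Of the 4 tested LXR partners and other LXR targets out of 5 listed, 4 were positive for L.J. against control, with a median of 0.28, and of the 3 tested genes of ester storage and lipoprotein loading out of 4 listed, 2 were, with a median of 0.04. For both treatments against busulfan, the comparison in which all SREBP2 targets were positive, the positive genes numbered 4 of 10 in SREBP processing, 2 of 10 in uptake and lysosomal release, 6 of 9 in isoprenoid branches and 7 of 8 in the supply list, with medians of -0.0044, -0.13, 0.03 and 0.06. They numbered 1 of 4 in LXR partners and other LXR targets and 0 of 3 in ester storage and lipoprotein loading, with medians of -0.10 and -0.025.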

How the data were processed

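Liver RNA of 12 libraries in 4 groups of 3 was read from 1 table. The authors deposited FPKM per gene, per the labels' protocols and the table itself. Alignment used Bowtie 0.12.2 against mm10, per the submitters' processing notes, and the quantifier, like the annotation, was not given in the sources used here. No counts are given, so the depth of each library is unknown and no counting interval is printed. FPKM summed to 514647 to 665060 per library. All value columns were mapped, with 0 left out.

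The 10786 genes that reached 1 FPKM in 3 or more libraries were fitted as log2(FPKM + 1) with limma 3.58.1 in R 4.3.3, as 4 group means over 12 libraries with 8 residual degrees of freedom and a mean-variance trend. Tests were two-sided, p-values were adjusted by Benjamini-Hochberg over all tested genes within a comparison, and the threshold was 0.05. The fit was tested on simulated data with independent noise for each gene. That test cannot show how the fit behaves when many genes shift together within a library, as they did here.

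The 31 genes and all lists were chosen with earlier results of these data known. Values per library are given for the pair of genes with the highest mean in each role, for the 3 with the smallest p in each comparison and for Abcg8, added after its values were seen. Replicate numbers were checked for pairing by correlating deviations from group means. For control and busulfan the correlations were 0.399, 0.157 and 0.11, all over the limit of 0.1, and for every other pair of groups at least 1 was below it. Yet only 1 of the 3 control libraries correlated best with the busulfan library of its own number. That number was 2 for control with L.J. and 3 for busulfan with L.J. Alternatives covered the pseudocount, filter, scaling, variance moderation, library weights, libraries fitted and libraries left out.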

Additional observations from a re-analysis of the deposited data

Results flagged for a closer look

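For 2 of the 31 genes, all 3 busulfan libraries lay on one side of the control mean and all 3 libraries given both on the other side of the L.J. mean, as was so for 10.6% of all 10786 tested genes. The sides are taken from group means, and the L.J. means rest on replicates 1 and 3, which stood apart. Srebf2 was below the L.J. mean of 14.1 FPKM in all 3 libraries given both, while the 3 libraries given busulfan alone were above the control mean on the log2 scale, and the interaction was -0.37 (SE 0.30). Mylip was below the L.J. mean of 3.74 FPKM in all 3 libraries given both and above the control mean of 2.41 FPKM in all 3 given busulfan alone, and the interaction was -0.61 (SE 0.30). Neither interaction passed, with limma adjusted p of 0.733 for Srebf2 and 0.709 for Mylip. L.J. replicate 2 was at 2.12 FPKM for Mylip, below all 3 libraries given both, at 2.63 to 2.83, and at 10.3 FPKM for Srebf2, below 2 of them, at 12.2 and 12.3. The Mylip interaction was -0.41 without L.J. replicate 1, -0.89 with an adjusted p of 0.0536 without L.J. replicate 2, and -0.06 without L.J. replicates 1 and 3. The Srebf2 interaction was -0.29 without L.J. replicate 1, -0.56 without L.J. replicate 2, and 0.02 without L.J. replicates 1 and 3.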

How the results depend on the processing

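The number of the 31 genes past the threshold was 0 in all 6 comparisons and stayed at 0 with other pseudocounts, filters, variance moderation, subsets of groups and the replicate number as a block, while the block left each median as it was. For L.J. against control it was 1 with median scaling, 1 with quantile normalisation, 9 with library weights and 0 to 5 with each library left out in turn, the 5 without L.J. replicate 2. For both treatments against L.J. it was 2 with library weights and 0 to 5 with each library left out, the 5 again without L.J. replicate 2, and for both against control it was 5 with library weights. These settings also moved the count over all genes, which for L.J. against control was 27 in the reported fit, 99 with median scaling, 63 with quantile normalisation, 3456 with library weights and 1800 without L.J. replicate 2. For both against L.J. it was 3 in the reported fit, 1016 with library weights and 1164 without L.J. replicate 2, and for both against control 0 and 696 with library weights. Without L.J. replicates 1 and 3, which leaves 1 library assumed to vary like the others, the LXR and export median was -0.10 for L.J. against control, 0.14 for both against L.J. and -0.0093 for the interaction, and Soat2 for both against L.J. was 0.067, a reversed sign. Without control replicate 1 and L.J. replicate 1, an alternative chosen after seeing the data, the SREBP2 target median was 0.72 for L.J. against control and -0.29 for the interaction. In both cases the cause was not tested. The depth is unknown, so what low values such as those of Abcg1 can resolve cannot be stated.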
